A study of Mus musculus with 21 samples.

Results

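The collagen chain genes described here are the 38 genes, of 20284 gene rows in the table, whose symbol reads Col, a number, the letter a and a number. The 6 type IV chains, which form basement membranes, were left out by the same rule. The 38 chains comprise 11 fibrillar chains, 9 fibril-associated chains, 6 chains of the beaded filament (type VI), 4 transmembrane chains, 3 chains of short-chain networks, 2 multiplexins (types XV and XVIII), 1 anchoring fibril chain (type VII) and 2 others. The rule reads names only and uses no measured value, but it was chosen with earlier results of these data known.

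Collagens are trimers of chains that share a repeating glycine-rich helix. Fibrillar collagens, above all types I and III with small amounts of type V, make the fibrils that give dermis its strength, and fibril-associated collagens sit on the fibril surface. Type VI forms beaded filaments close to cells, type VII anchors the epidermal basement membrane to the dermis, multiplexins lie next to basement membranes, and transmembrane collagens stay in the cell membrane or are shed from it. The dermal condensate is the cluster of mesenchymal cells that gathers under the hair placode and later becomes the dermal papilla.

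The cells came from back skin of CD1 mouse embryos at embryonic day 15, with no genotype or treatment named beyond the strain. Live sorted cells were lysed in separate wells and their RNA was counted from the 3' end with molecular identifiers (SORT-seq, a plate form of CEL-seq2), so that a value is a number of UMIs. The wells are named Fb (fibroblast; 1371 wells), DC0 (149), DC1 (152) or DC2 (151), with further wells named ERCC. Libraries 1 to 7 held Fb and all 3 condensate populations, library 8 held DC0 and DC2 only and library 9 DC1 only; 12 bulk samples of the series were not analysed here. The labels do not define DC0 and do not say how a well came by its prefix, by sort gate or by cluster. The series' text names a clustering algorithm for finding the stages, and if the prefixes of libraries 1 to 7 follow clusters, genes that separate the populations helped to name them. The labels also do not say that the libraries came from different litters, so a p-value here reflects library-to-library spread, which may be technical.

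Median depth was 18509 UMIs per Fb well, 12773 per DC0 well, 10469 per DC1 well and 8333 per DC2 well. Fb wells summed to between 2372569 and 6033442 UMIs per library, against 56832 to 380695 for the condensate wells of libraries 1 to 6, and the 4 DC2 wells of library 1 gave 2855 UMIs only. The summed level of 8 dermal condensate markers was 99.0 to 138.9 UMIs per 1000000 UMIs (CPM) in Fb wells and 1941 to 3769 CPM in condensate wells. The summed level of 8 dermal fibroblast markers was 11441 to 12983 CPM in Fb wells, with medians of 10970 CPM in DC0, 6068 CPM in DC1 and 4921 CPM in DC2, and its part in the collagen differences was not tested. The 8 markers went different ways in pooled CPM from Fb to DC0 wells. Twist2 (1000 to 2492), Crabp1 (2301 to 3994) and Vim (2433 to 2622) were higher in DC0. Dcn (3898 to 699), Lum (1722 to 745), Dpt (587 to 29.6), Pdgfra (321 to 228) and Ogn (193 to 5.72) were lower. The labels do not say what the ERCC wells hold. They gave a median of 431 UMIs, and 2112 of their 72455 UMIs (2.91%) were of collagens.

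Promoter sequence is shown for 6 chains that lie on opposite sides of the comparison below, 3 that were lower in condensate wells (Col1a2, Col3a1, Col16a1) and 3 that were higher (Col7a1, Col15a1, Col23a1). Each line gives the 120 bases before the RefSeq transcript start (build GRCm38.p6), 5' to 3' on the gene's strand. Capitals mark a match to CCAAT or TATAAA on either strand.
Col1a2, chr6:4505498-4505617, plus strand: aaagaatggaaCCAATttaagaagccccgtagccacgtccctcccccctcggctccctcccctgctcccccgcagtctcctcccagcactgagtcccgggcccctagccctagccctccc
Col3a1, chr1:45311418-45311537, plus strand: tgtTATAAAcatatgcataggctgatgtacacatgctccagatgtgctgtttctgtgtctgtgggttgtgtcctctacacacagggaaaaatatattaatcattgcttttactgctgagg
Col16a1, chr4:130047720-130047839, plus strand: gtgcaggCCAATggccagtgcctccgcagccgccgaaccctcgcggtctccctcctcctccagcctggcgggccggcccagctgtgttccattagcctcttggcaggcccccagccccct
Col7a1, chr9:108953466-108953585, plus strand: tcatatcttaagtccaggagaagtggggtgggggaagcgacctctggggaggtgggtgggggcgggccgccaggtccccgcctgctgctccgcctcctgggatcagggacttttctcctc
Col15a1, chr4:47207892-47208011, plus strand: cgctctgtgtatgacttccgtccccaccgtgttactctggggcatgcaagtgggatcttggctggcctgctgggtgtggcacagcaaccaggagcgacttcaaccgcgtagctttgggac
Col23a1, chr11:51289800-51289919, plus strand: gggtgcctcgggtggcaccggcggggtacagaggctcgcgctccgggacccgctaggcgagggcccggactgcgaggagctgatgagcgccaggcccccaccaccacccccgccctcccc
The Col1a2 and Col16a1 windows hold CCAAT, the Col3a1 window holds TATAAA near its far end, and the other 3 windows hold none of the letters searched. These 6 do not stand for all called chains. In such windows Col11a1 (higher) and 1 Col9a1 promoter (lower) also hold CCAAT. Col6a2, Col6a3 and Col25a1 (higher) and Col5a1, Col8a1, Col24a1 and Col27a1 (lower) hold no match. Col7a1 and Col25a1 hold CCAAT within 250 bases. RefSeq promoters were found for 30 of the 38 chains (33 promoters). Within 250 bases before the start, CCAAT (or ATTGG) occurred in 10 of those 33 promoters and in 33.8% of all 32851 promoters. TATAAA (or TTTATA) occurred in 5 of 33 and in 12.4% of all, and CATTGT (or ACAATG), a core read by SOX factors, in 1 of 33 and in 10.7% of all. CCAAT and ACAATG share the letters CAAT, so these motifs can overlap, and a match is a description of these letters only.

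Condensate wells gave a smaller share of their UMIs to collagens than Fb wells of the same libraries. The 38 chains together took 5.23% ± 0.43 of UMIs in Fb wells (SD, n = 6 libraries) and 2.44% ± 0.25 in condensate wells, and no library of either group fell in the range of the other. The fibrillar class carried this difference, at 44854 ± 3796 CPM in Fb wells and 14187 ± 1436 CPM in condensate wells. Fibril-associated chains summed to 902 ± 63.8 against 326 ± 122.8 CPM and short-chain networks to 133.2 ± 15.9 against 41.7 ± 40.2 CPM. The beaded filament class went the other way, at 5873 ± 554 against 8184 ± 1626 CPM, as did Col7a1 (162 ± 34.1 against 615 ± 209 CPM), the transmembrane class (67.7 ± 8.93 against 596 ± 109 CPM) and the multiplexins (27.9 ± 7.87 against 131 ± 71.4 CPM).

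In the test across all genes (edgeR's quasi-likelihood test on UMIs summed per library, with the library as a block, Benjamini-Hochberg adjustment and a threshold of 0.05), 24 of the 38 chains passed the filter on low counts. Of these, 7 were higher in condensate wells, 12 were lower and 5 did not pass the test, where the background over 9640 genes was 23.6% called, 10.4% higher and 13.2% lower. The median log2 fold change of the 24 chains was -1.11, against -0.03 over all genes tested. For 16 of the 24 the libraries of the 2 groups did not overlap. The share of all genes without overlap is not given here, so this count is a description only. By class, 7 of 8 tested fibrillar chains were lower and 1 was higher, 4 of 6 fibril-associated chains were lower and none was higher, 2 of 3 beaded filament chains were higher and none lower, and both tested transmembrane chains were higher. Col25a1 passed the filter through its condensate sums, and Col24a1 and Col9a1 through their Fb sums, the group in which each was high. All 19 called chains were also called within the 3 libraries whose labels name a shared flow cell. Within the 3 others Col11a1, Col14a1, Col6a2, Col6a3 and Col9a1 kept their direction and lost the call, and so did Col14a1 and Col8a1, of 15 chains tested, with every well thinned to 3000 UMIs.

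**Figure D1:**
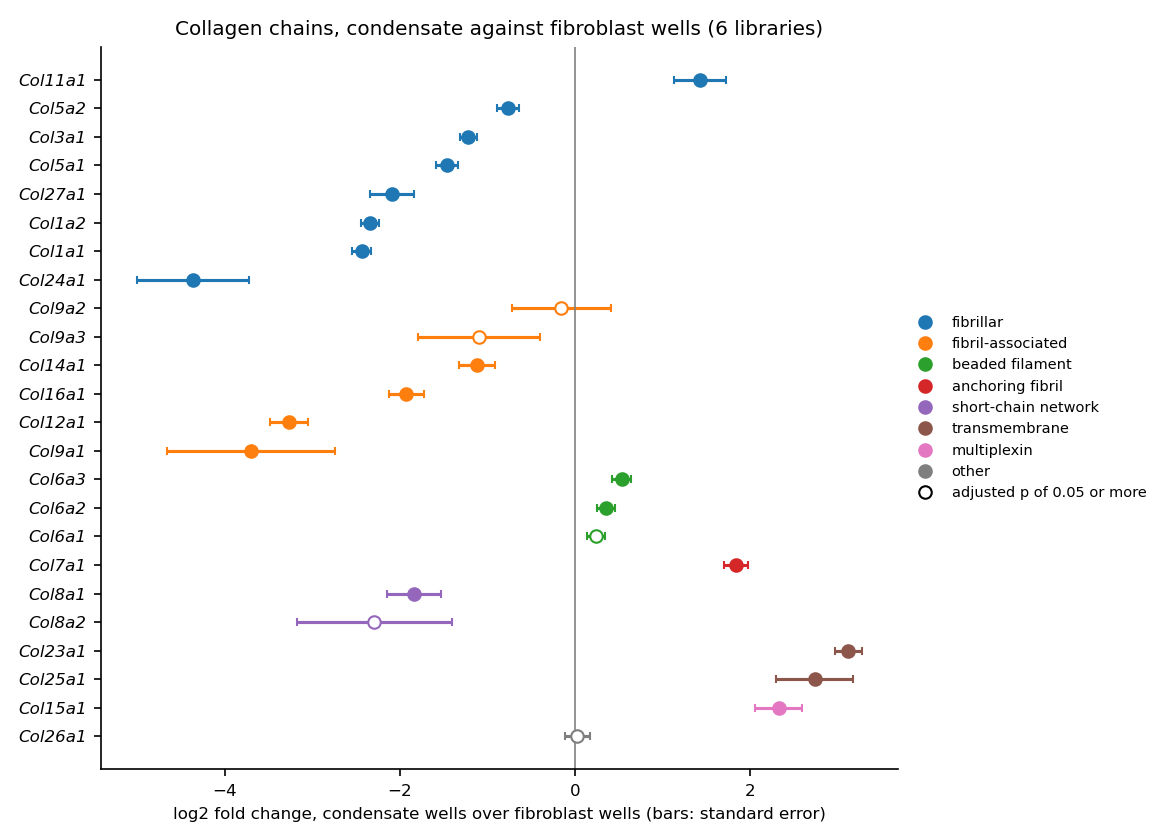
Log2 fold change of condensate over Fb wells for the 24 collagen chains tested, grouped and coloured by class, with bars for the standard error (6 libraries). Filled points passed the test and open points did not. Lower chains are mostly fibrillar or fibril-associated, from -0.76 for Col5a2 to -4.36 for Col24a1, and Col23a1 is farthest to the right at 3.12.

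Type I collagen accounted for most of the UMIs by which the groups differed. Col1a1 (chr11:94936224-94953042, plus strand, mm10), which encodes the alpha 1 chain of type I, lay at 4358, 9302 and 11092 CPM (lowest, median and highest of 6 libraries) in Fb wells and at 742, 1958 and 2217 CPM in condensate wells. Every condensate value was below every Fb value, and library 4 was lowest in both groups. The log2 fold change of Col1a1 was -2.43 ± 0.11 (SE; adjusted p = 4.45e-21, edgeR), a 5.40-fold lower level. Col1a2 (chr6:4504814-4541544), the second type I chain, whose promoter is printed above, lay at 13921, 18131 and 20700 CPM in Fb wells and at 3109, 3712 and 4117 CPM in condensate wells, again without overlap. Its log2 fold change of -2.34 ± 0.10 (adjusted p = 4.45e-21) was close to that of its partner.

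The other fibril-forming chains fell less or lay at low levels. Col3a1 (chr1:45311538-45349706), the only chain of type III, lay at 14623, 15022 and 19924 CPM in Fb wells and at 6071, 6712 and 9557 CPM in condensate wells, a log2 fold change of -1.22 ± 0.10 (adjusted p = 2.48e-13). Library 4, the lowest for Col1a1, was the highest for Col3a1 in both groups. Type V collagen, which controls fibril width, fell through Col5a1 (1128, 1337 and 1647 CPM in Fb wells; 405, 449 and 883 CPM in condensate wells; log2 fold change -1.46 ± 0.13, adjusted p = 2.53e-12). Its second chain Col5a2 fell least of the fibrillar chains that fell (1038, 1113 and 1260 CPM against 543, 731 and 880 CPM; log2 fold change -0.76 ± 0.12, adjusted p = 4.23e-06). Neither type V chain overlapped between the groups.

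Col24a1 and Col27a1, 2 fibrillar chains of developing cartilage and bone, were also lower. Col27a1 lay at 110 to 143.9 CPM in Fb wells and at 0 to 55.996 CPM in condensate wells (log2 fold change -2.09 ± 0.25, adjusted p = 1.28e-08). Col24a1 lay at 27.3 to 43.2 CPM in Fb wells, and 4 of 6 condensate sums held none of it. Only 2 Col24a1 UMIs came from condensate wells in these libraries, against 948 from Fb wells, a 20.1-fold lower level with a counting interval of 5.55 to 166 (95%, counting error only; adjusted p = 8.37e-07 by edgeR). Col11a1, which elsewhere joins cartilage fibrils and takes a place like that of type V, was the fibrillar chain that rose. It lay at 16.0, 19.98 and 24.0 CPM in Fb wells and at 11.1, 57.9 and 106 CPM in condensate wells, higher in 5 of 6 libraries, with the log2 fold change 1.42 ± 0.30 (adjusted p = 0.000283). Library 1 was the exception and made the groups overlap. The summed level of cartilage markers was 0.337 to 3.37 CPM in Fb wells and 0 to 5.30 CPM in condensate wells.

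Among the chains that decorate fibrils, Col12a1 fell most that had more than 10 UMIs. Col12a1, a type XII chain that links fibrils in stretched tissue, lay at 308.1, 429 and 499 CPM in Fb wells and at 7.42, 41.1 and 79.3 CPM in condensate wells (log2 fold change -3.27 ± 0.21, adjusted p = 1.12e-15). Col16a1, the type XVI chain, lay at 198.9, 252 and 307 CPM in Fb wells and at 17.6, 59.3 and 163.2 CPM in condensate wells (log2 fold change -1.93 ± 0.20, adjusted p = 4.16e-10). Col14a1, a type XIV chain close in structure to type XII, fell less, from 184, 200 and 212 CPM to 35.2, 107.4 and 177 CPM (log2 fold change -1.12 ± 0.21, adjusted p = 4.66e-05). All 3 were lower in 6 of 6 libraries without overlap. The type IX chain Col9a1 gave 305 UMIs in Fb wells and 1 in condensate wells, a 12.9-fold lower level with the counting interval 2.31 to 513 (adjusted p = 0.00321). Col9a2 (263 against 11 UMIs) and Col9a3 (233 against 5 UMIs) did not pass the test, with adjusted p = 0.884 and 0.280. Col8a1, a short-chain network chain, lay at 108, 119 and 152 CPM in Fb wells and at 0, 27.1 and 105 CPM in condensate wells (log2 fold change -1.84 ± 0.31, adjusted p = 9.76e-06), and its usual partner Col8a2 gave 235 against 2 UMIs (adjusted p = 0.0545; 0.0236 to 0.0383 with no replicate block, with no filter, with at least 5 wells and within the shared flow cell).

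**Figure D2:**
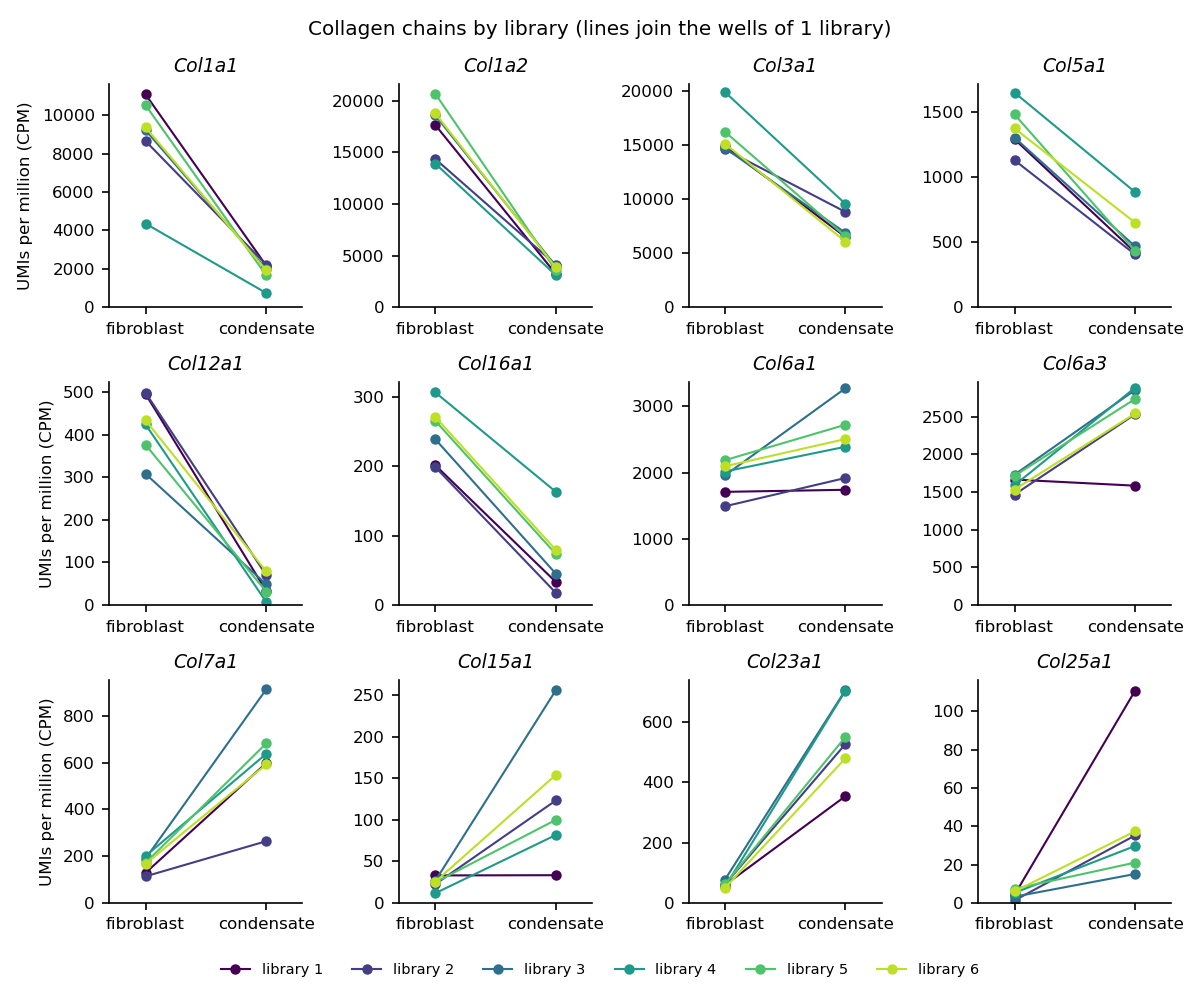
CPM (UMIs per 1000000) of 12 collagen chains in Fb and condensate wells, with 1 line per library (libraries 1 to 6) and every vertical axis starting at 0. Lines fall in all libraries for Col1a1, Col1a2, Col3a1, Col5a1, Col12a1 and Col16a1, and rise in all for Col7a1, Col15a1, Col23a1 and Col25a1.

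The type VI chains lay near or a little above their Fb level. Col6a1 (1490, 1986 and 2186 CPM in Fb wells; 1740, 2448 and 3273 CPM in condensate wells) did not pass the test, with the log2 fold change 0.24 and adjusted p = 0.101 (0.0477 within the shared flow cell). Col6a2, which lies beside Col6a1 on chromosome 10, was higher in 6 of 6 libraries by 0.35 ± 0.10 on the log2 scale (adjusted p = 0.0103), and its groups overlapped. That call was lost without library 3 or without library 4, with adjusted p = 0.0792 to 0.0887, and with no filter (0.143) or no replicate block (0.0621). Col6a3, the longest chain of the same filament, lay at 1467, 1628 and 1731 CPM in Fb wells and at 1585, 2640 and 2886 CPM in condensate wells (log2 fold change 0.53 ± 0.11, adjusted p = 0.000253). The condensate wells of library 1, at 1585 CPM, fell inside the Fb range, and the other 5 lay above it.

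Col23a1 (chr11:51289920-51583918, plus strand), a transmembrane collagen that is also shed, rose most of the tested chains. It lay at 49.3, 59.8 and 76.5 CPM in Fb wells and at 354.6, 540 and 707 CPM in condensate wells. The groups stood far apart, and the log2 fold change was 3.12 ± 0.15 (adjusted p = 6.01e-20), 8.69-fold higher. When wells were thinned to 3000 UMIs, 13.9% of 1155 Fb wells held a Col23a1 UMI, against 68.7% of DC0, 79.1% of DC1 and 89.7% of DC2 wells. In the same wells before thinning the shares were 51.9%, 97.4%, 96.4% and 97.7%. Over all wells, shallower ones included, they were 44.6%, 80.5%, 90.1% and 64.9%, and 6.94% in ERCC wells. Col25a1, a second transmembrane chain known from neurons and muscle, lay at 1.26 to 7.29 CPM in Fb wells and at 15.05 to 111 CPM in condensate wells (132 and 36 UMIs; log2 fold change 2.73 ± 0.44, adjusted p = 5.62e-06).

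The anchoring fibril chain Col7a1 and the multiplexin Col15a1 also rose. Col7a1 (chr9:108953586-108984875) lay at 113.4, 169 and 200 CPM in Fb wells and at 264, 618 and 914 CPM in condensate wells (log2 fold change 1.84 ± 0.14, adjusted p = 6.93e-14). Col15a1 lay at 11.5, 25.01 and 33.0 CPM in Fb wells and at 33.2, 111 and 256 CPM in condensate wells (log2 fold change 2.33 ± 0.27, adjusted p = 4.26e-09). Both were higher in 6 of 6 libraries without overlap, although the lowest condensate value of Col15a1, in library 1, lay just above the highest Fb value. The summed level of 8 epidermal markers was 45.9 to 489 CPM in Fb wells and 29.7 to 429 CPM in condensate wells, so these ranges lay over each other. ERCC wells held 7 Col7a1 UMIs and 9 Col15a1 UMIs in all.

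Col19a1, a rare fibril-associated chain of basement membrane zones, did not pass the filter of this fit and gave 39 UMIs in 26929602 from Fb wells and 111 UMIs in 1142655 from condensate wells. That is a 67.1-fold ratio with a counting interval of 46.2 to 99.3, and the condensate sums ranged from 0 in library 1 to 223 CPM in library 4. With wells thinned to 3000 UMIs, 0.260% of Fb wells held a Col19a1 UMI, against 13.04% of DC0, 23.7% of DC1 and 39.1% of DC2 wells. In the same wells before thinning the shares were 2.51%, 28.7%, 51.8% and 70.1%, and over all wells, shallower ones included, 2.19%, 22.8%, 47.4% and 41.1%, with 2.08% in ERCC wells. Col26a1, a secreted collagen first described in reproductive organs, lay at 195 to 298 CPM in Fb wells and 186 to 361 CPM in condensate wells and did not pass the test (log2 fold change 0.03, adjusted p = 0.925).

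The remaining chains gave few UMIs. Over all libraries, Fb and condensate wells gave 228 and 10 UMIs of Col5a3, 110 and 23 of Col17a1, 95 and 5 of Col6a6, and 34 and 13 of Col20a1. Col18a1 gave 71 UMIs in condensate wells, and in Fb wells 59 of its UMIs came from 1 well. Counts were 16 and 9 for Col2a1, 15 and 1 for Col11a2, 14 and 10 for Col13a1, 11 and 0 for Col6a5, 10 and 5 for Col22a1, 5 and 1 for Col28a1, and 2 and 1 for Col6a4. Col10a1, known from hypertrophic cartilage, gave 4 UMIs, all in DC2 wells. No difference in these 13 chains was tested.

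The balance between chains of a fibril was compared as the ratio of their UMIs within a library, which does not depend on the library's total. Col3a1 over Col1a1 was 1.34, 1.69, 1.598, 4.57, 1.54 and 1.61 in the Fb wells of libraries 1 to 6 and 2.99, 3.98, 3.45, 12.9, 3.93 and 3.16 in their condensate wells. It was higher in the condensate wells of every library, by 1.22 ± 0.19 on the log2 scale (SD, n = 6). The exact two-sided sign-flip permutation test gave p = 0.03125, the smallest 6 libraries allow, and 0.0625 after adjustment over the 6 ratios tested, which does not pass 0.05. Col5a1 over Col1a1 (0.95 ± 0.42) and Col5a2 over Col5a1 (0.71 ± 0.38) also moved up in 6 of 6 libraries, each with the same exact p and adjusted p = 0.0625. In contrast, Col1a2 over Col1a1 differed by 0.09 ± 0.18 (exact permutation p = 0.25), Col6a2 over Col6a1 by 0.11 ± 0.19 (adjusted p = 0.25, exact) and Col6a3 over Col6a1 by 0.29 ± 0.29 (adjusted p = 0.1875, exact). Library 4 stood above the others in all 3 ratios over Col1a1, in Fb and in condensate wells alike, and without it the Col3a1 over Col1a1 difference was 1.16.

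**Figure D3:**
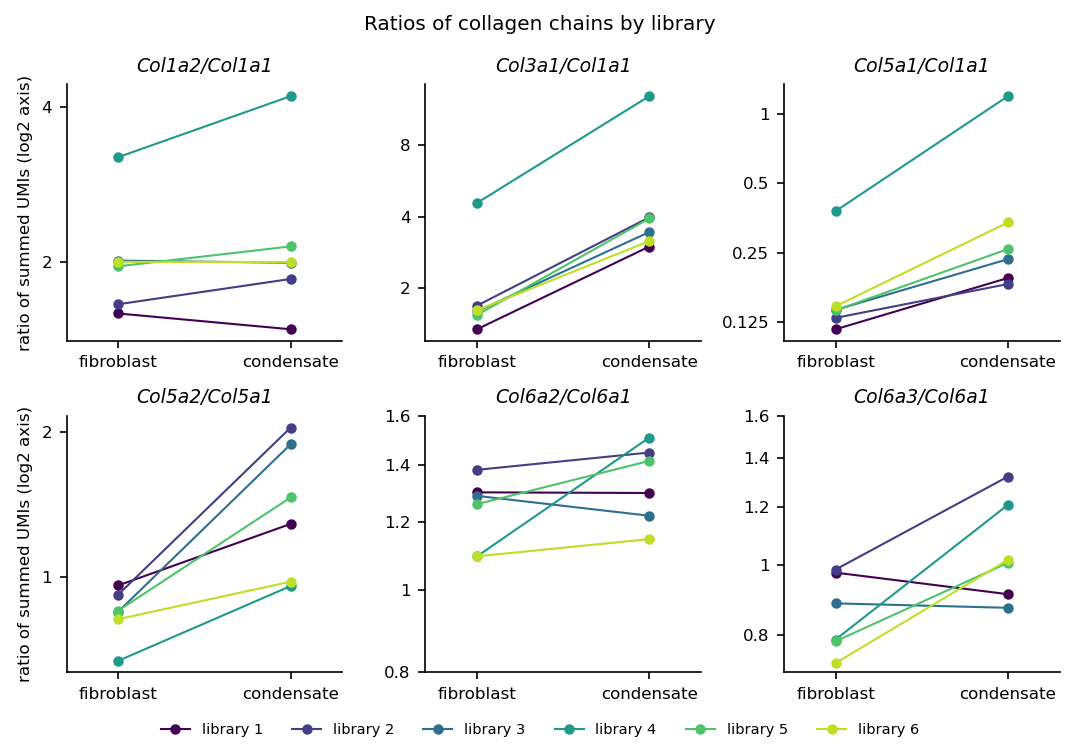
Ratios of summed UMIs of 2 collagen chains in Fb and condensate wells on log2 axes, with 1 line per library. The lines of Col3a1/Col1a1, Col5a1/Col1a1 and Col5a2/Col5a1 rise in all 6 libraries, and library 4 lies above the others for the ratios over Col1a1.

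Pooled by population, Col3a1 over Col1a1 was 1.63 in Fb wells and 4.30, 3.69 and 3.97 in the DC0, DC1 and DC2 wells of libraries 1 to 7. In libraries 8 and 9 it was 4.04, 4.17 and 4.91. Col5a2 over Col5a1 was 0.850 in Fb wells and 1.24, 1.25 and 1.74 from DC0 to DC2. In libraries 8 and 9 that ratio was 0.742, 1.58 and 1.56, so the DC0 wells of library 8 lay below Fb wells. Col14a1 over Col1a1 was 0.0215 in Fb wells and 0.0268, 0.0611 and 0.140 from DC0 to DC2, and 0.0244, 0.0695 and 0.250 in libraries 8 and 9, where DC1 is another library than DC0 and DC2. Col12a1 over Col1a1 was lower in the condensate wells of 6 of 6 libraries, by 1.202 on average, on 1 to 17 Col12a1 UMIs a library, and was not tested.

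Across Fb wells the main chains of types I, III and V varied together. Among the 1155 Fb wells with at least 3000 UMIs, collagens took 4.80% of UMIs in the median well, 2.78% at the tenth percentile, 7.85% at the ninetieth and 16.2% at most. Pearson's r over the wells of a library, averaged over 7 libraries, was 0.89 for Col1a1 with Col1a2 (0.80 to 0.92), 0.77 for Col1a1 with Col3a1, 0.73 for Col1a2 with Col5a1 and 0.62 for Col6a1 with Col6a2. Col7a1 was negative with the fibril-associated chains Col12a1 (r of -0.54, -0.63 to -0.46) and Col14a1 (-0.43), and less so with the fibrillar chain Col1a2 (-0.35). Col6a3 and Col23a1 were nearly unrelated to Col1a2, with r of -0.03 for each. Only 51.9% of these Fb wells held a Col23a1 UMI, so counting error bears on its r. Col6a3 was also less close to its filament partners, at 0.33 with Col6a1 and 0.30 with Col6a2. Col1a2 gave 0.38 and 0.28 with the same 2 chains. Wells of a library share its preparation and depth: r with the well's total was 0.24 for Col1a1, 0.34 for Col1a2 and -0.05 for Col7a1.

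**Figure D4:**
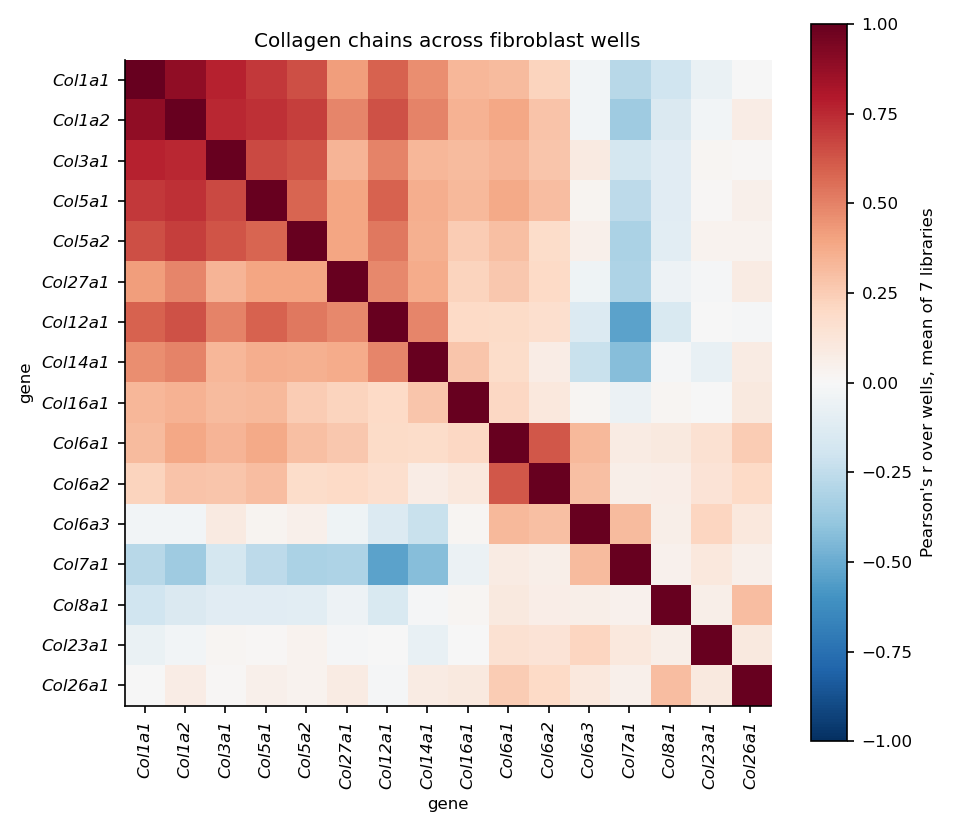
Pearson's r between collagen chains over the Fb wells of a library, averaged over 7 libraries, as a colour for each pair of genes. The pairs among Col1a1, Col1a2, Col3a1, Col5a1, Col5a2 and Col12a1 are positive (0.50 to 0.89), and Col7a1 is negative with Col12a1 (-0.54), Col14a1 (-0.43) and Col1a2 (-0.35).

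DC0 wells, taken alone, differed from Fb wells in the same chains for the most part. The contrasts between populations that follow come from 1 fit and share their sums, so they are not independent of each other. In DC0 against Fb wells, 16 chains were tested, of which 3 were higher and 8 lower, where 26.5% of 2069 genes were called (11.7% higher, 14.8% lower); the median over chains was -0.55 and over all genes -0.02. Lower chains were Col12a1 (-2.82 ± 0.29), Col1a1 (-2.31 ± 0.20), Col1a2 (-2.23 ± 0.17), Col14a1 (-2.18 ± 0.39), Col5a1 (-1.54 ± 0.19), Col5a2 (-1.11 ± 0.18) and Col3a1 (-0.98 ± 0.16), each in 7 of 7 libraries. Outside the shared flow cell Col3a1 lost its call (-0.77, adjusted p = 0.104). Col16a1 was lower in 5 of 7 libraries (-0.92 ± 0.30, adjusted p = 0.0207) and lost its call without library 1, 2, 3, 5, 6 or 8 (adjusted p = 0.0524 to 0.183) and within the shared flow cell (0.168). Higher chains were Col23a1 (2.83 ± 0.20) and Col7a1 (1.84 ± 0.23) in 7 of 7 libraries, and Col19a1 (4.74 ± 0.63, adjusted p = 2.07e-07) in 4 of 7. Col19a1, Col23a1 and Col15a1 lay too low in Fb wells to pass the filter on low counts there. They were tested only through condensate sums, so the count of 3 higher chains depends on that filter. Col12a1 was tested only through its Fb sums, the group in which it was high. The count of 8 lower chains thus depends on the filter too. Col19a1 had a value in 6 of the 8 fits that leave out 1 library. Col15a1 did not pass at 1.44 (adjusted p = 0.0785; 0.0173 with no replicate block and 0.0499 within the shared flow cell), nor did Col6a1, Col6a2 and Col6a3 at 0.12, 0.16 and 0.10.

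Neighbouring condensate populations gave no called chain. Between DC1 and DC0, 0 of 16 chains were called, where 1.16% of genes were (0.967% higher, 0.193% lower). At an unadjusted p under 0.05 Col6a3 was higher (0.51) and Col3a1 (-0.44, lower in 7 of 7 libraries) and Col16a1 (-1.34) were lower, with adjusted p of 0.302, 0.268 and 0.195, and DESeq2 called 0. Between DC2 and DC1, 0 of 16 were called, where 2.46% of genes were (1.16% higher, 1.3% lower). Of all genes called there 47.1% were higher, and 65.2% were under RLE scaling and 60.6% by DESeq2. Col26a1 (0.94) and Col14a1 (1.05) were higher at an unadjusted p under 0.05, with adjusted p of 0.0795 and 0.205, and DESeq2 called 1 chain.

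In DC2 against DC0 wells, 7 of 16 chains were higher and 2 lower, where 17.6% of genes were called (8.41% higher, 9.18% lower). Col15a1 passed the filter on low counts only with its DC2 sums, the group in which it was high. Col19a1 was again tested only through condensate sums, so the count of 7 depends on that filter. Among the called genes 47.8% were higher, and 59.9% were under RLE scaling and 58.8% by DESeq2. The median over chains was 0.22 and over all genes -0.04. Among the 16 chains tested Col14a1 had the highest log2 fold change: it lay at 0, 44.1 and 138.6 CPM in DC0 (8 libraries), 0, 89.7 and 241 CPM in DC1 and 0, 251 and 351 CPM in DC2. The DC2 value of 0 came from library 1, with its 2855 UMIs, and DC2 was the higher in the other 7 libraries (log2 fold change 2.06 ± 0.41, adjusted p = 0.000398). In library 8, which held most of the DC0 and DC2 wells, the ratio was 4.51 (counting interval 3.54 to 5.79). Col14a1 was thus lowest in DC0, with DC2 near the 184 to 235 CPM of Fb wells. This was the only one of the 9 called chains that kept its call whichever library was left out. Within the 4 libraries of the shared flow cell none of the 9 was called (Col14a1 at 1.73, adjusted p = 0.0759), and within the other libraries Col14a1 was (2.48, adjusted p = 0.00942), 1 of the 6 that could be tested there.

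Col15a1 and Col19a1 lay higher in DC2 than in DC0 with many empty sums. Col15a1 lay at 0, 32.0 and 370 CPM in DC0 and 0, 213 and 318 CPM in DC2 (1.72 ± 0.57, adjusted p = 0.0311; higher in 5 of 8 libraries, lower in 2; library 8 ratio 5.33, counting interval 4.23 to 6.78). Col19a1 lay at 0, 31.0 and 309 CPM in DC0 and 0, 132 and 188 CPM in DC2 (1.46 ± 0.51, adjusted p = 0.0413; higher in 5 of 8; library 8 ratio 3.85). Col15a1 lost its call without library 5 or 8 (adjusted p = 0.0773 to 0.181) and by DESeq2 (0.0509), and Col19a1 lost it without library 2, 5 or 7 (0.0524 to 0.121). Smaller rises were those of Col26a1 (0.72 ± 0.25, adjusted p = 0.0452), Col23a1 (0.60 ± 0.20, adjusted p = 0.0321), Col5a2 (0.58 ± 0.19, adjusted p = 0.0315) and Col6a3 (0.56 ± 0.19, adjusted p = 0.0346). Each of these 4 lost its call with no filter (adjusted p = 0.283 to 0.424), with at least 5 wells per sum (0.0510 to 0.450), without library 8 and without at least 3 others: libraries 3, 4, 6 and 7 for Col26a1 (adjusted p = 0.0706 to 0.207), 3, 4 and 7 for Col23a1 (0.0544 to 0.178), 3, 4, 5 and 6 for Col5a2 (0.0562 to 0.131), and 2, 3, 4, 5 and 7 for Col6a3 (0.0736 to 0.169).

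The chains that fell from DC0 to DC2 were Col16a1 and Col3a1. Col16a1 lay at 0, 96.0 and 431 CPM in DC0 and 0, 65.8 and 93.1 CPM in DC2, with overlap (-1.32 ± 0.37, adjusted p = 0.0124; lower in 6 of 8), and lost its call without library 7 (adjusted p = 0.0564) and with at least 5 wells (0.112). Col3a1 lay at 6170, 8748 and 11124 CPM in DC0 and 3626, 6617 and 10373 CPM in DC2 (-0.51 ± 0.15, adjusted p = 0.0187; lower in 7 of 8), and lost its call without library 7 or 8 (0.0605 to 0.0653), with no replicate block (0.0543) and when thinned (0.205). Col1a1 did not pass (-0.35, adjusted p = 0.224), although in library 8 it lay at 2331 CPM in DC0 and 1028 CPM in DC2, a ratio of 0.441 (counting interval 0.414 to 0.469).

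Col11a1 and Col25a1 did not pass the filter of that fit. Col11a1 gave 14 UMIs in DC0, 55 in DC1 and 241 in DC2 wells: DC0 was at 0 in 6 of 8 libraries and at 46.2 CPM at most, and DC2 was between 105 and 375 CPM in 7 of 8. In library 8 the ratio of DC2 to DC0 was 17.0 (counting interval 9.25 to 34.6), and in libraries 1 to 7 together it was 26.3 on 69 and 3 UMIs (8.65 to 131). Col25a1 gave 25, 87 and 117 UMIs, with a ratio of 4.81 (3.04 to 7.93) in library 8. Col8a1 went down in library 8, from 31.9 to 5.15 CPM. The bone marker list rose over the same populations, with median sums of 41.5 CPM in DC0, 88.1 CPM in DC1 and 208 CPM in DC2 (60.9 CPM in Fb), with Bglap at 0 in all of them, and its part in the Col11a1 levels was not tested.

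**Figure D5:**
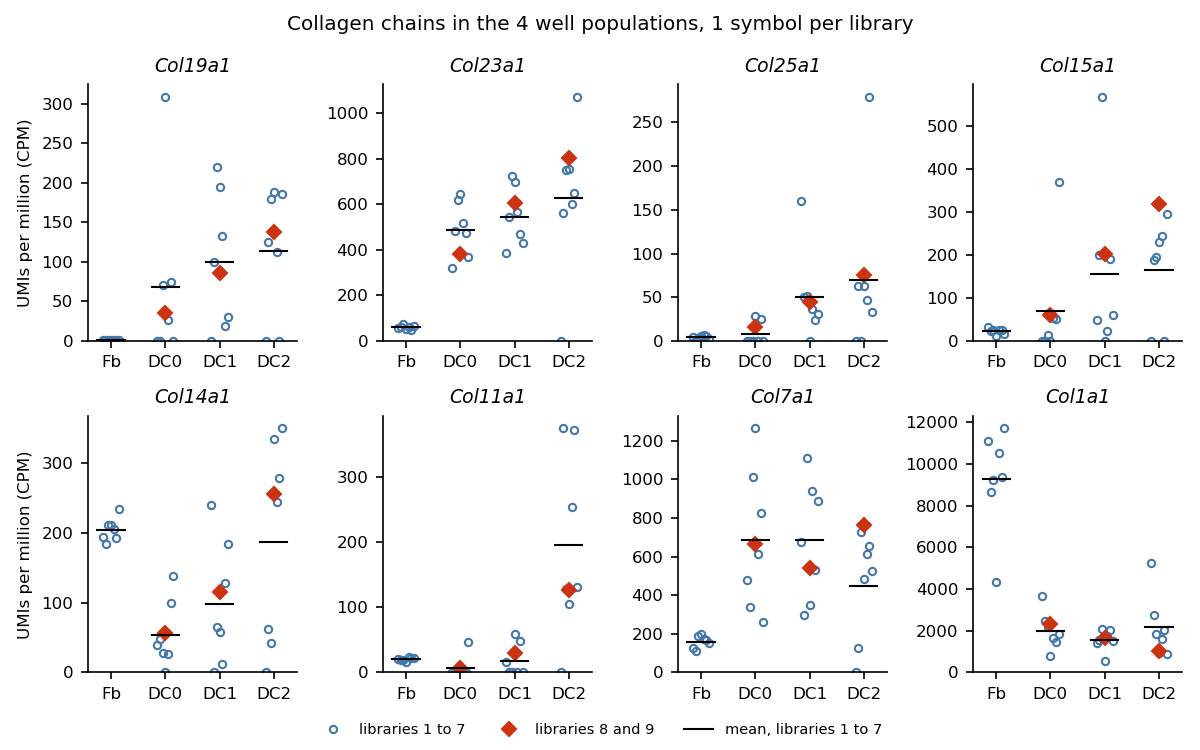
CPM (UMIs per 1000000) of 8 collagen chains in Fb, DC0, DC1 and DC2 wells, with circles for libraries 1 to 7, diamonds for libraries 8 and 9 and a line for the mean of libraries 1 to 7. By the mean lines, Col1a1 is highest in Fb wells, Col23a1 and Col7a1 are higher in all 3 condensate populations than in Fb wells (with a DC2 value of 0 in library 1), and Col14a1 and Col11a1 are lowest in DC0, with Col14a1 medians of 44.1 CPM in DC0 and 251 CPM in DC2.

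Most of the enzymes and carriers that finish collagens were also lower in condensate wells. Of 47 genes listed for collagen maturation, uptake and binding, 37 were tested in condensate against Fb wells, and 24 were lower and 3 higher, with a median of -1.12, where 13.2% of all genes tested were lower and 10.4% higher with a median of -0.03. All 9 tested genes of proline hydroxylation, which stabilises the helix, were lower, as were 5 of 6 chaperone and export genes. Named by size, the lower genes were Lox (-5.13 ± 0.41), the lysyl oxidase that cross-links fibrils, P4ha3 (-3.33) and P4ha2 (-2.07), prolyl hydroxylase subunits, Pcolce (-3.28), an enhancer of propeptide removal, Fkbp10 (-2.75), a folding factor, Creb3l1 (-2.55), a transcription factor of type I collagen genes in bone, Colgalt2 (-2.45), which adds galactose, and Itga11 (-2.04), a subunit of a collagen receptor. Each was lower in 6 of 6 libraries. P4ha2 lost its call with wells thinned to 3000 UMIs (adjusted p = 0.0527). So did the proline hydroxylation genes P4ha1, Leprel2 (P3h3) and Ppib, and the chaperone and export genes Fkbp14 and Mia3. Glt25d1 (Colgalt1), Loxl1, Mrc2 and the higher Mmp14 were also lost when thinned (0.0764 to 0.703 over these added genes). P4ha3, Colgalt2 and Itga11 lost theirs outside the shared flow cell (0.191 to 0.526), as did Tmem38b below (0.242). Loxl1, Mia3, Mmp14, P4ha1 and Plod3 lost theirs there too (0.0594 to 0.469). The higher ones past a log2 fold change of 1 were Tmem38b (1.62 ± 0.41, adjusted p = 0.00238), a channel of the endoplasmic reticulum, and Loxl2 (1.00 ± 0.14, adjusted p = 3.20e-07), a lysyl oxidase relative. In DC0 against Fb wells 15 of 22 tested genes were lower and Loxl2 was higher, where 14.8% of all genes tested were lower and 11.7% higher; with no replicate block 17 were lower and 2 higher. From DC0 to DC2 only Loxl2 was called, lower by edgeR (-0.59 ± 0.20, adjusted p = 0.0378). That call was lost under DESeq2, RLE scaling, no filter, no replicate block, thinning, at least 5 wells and in both sets of flow cells (adjusted p = 0.0651 to 0.406), and DESeq2 called Itgb1 higher instead.

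Collagen UMIs in the ERCC wells bear on the low levels above. ERCC wells held 1.99 Col1a1, 4.38 Col1a2 and 4.37 Col3a1 UMIs per well, against 20.9, 38.0 and 87.6 per condensate well and 215, 411 and 351 per Fb well. Col12a1, at 0.768 UMIs per condensate well, was nearer to its 0.188 per ERCC well, and in DC0 wells 95 of its 177 UMIs came from 1 well. Col23a1 gave 0.0694 UMIs per ERCC well and 7.36 per condensate well, and Col25a1 gave none in ERCC wells. The part of such UMIs in the Col1a1 and Col12a1 levels of condensate wells was not tested.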

How the data were processed

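Single cells from embryonic back skin were measured by SORT-seq in 9 libraries, and the authors deposited 1 table of 20284 gene rows and 86 spike-in rows by 1967 wells. Per the submitters' processing notes, the series' tools were BWA 0.6.2-r126, TopHat2 2.0.3, Cufflinks 2.1.1 and Bowtie2 on build mm10; which tool was used for the wells is not given in the sources used here. The deposited values are expected counts: all 7480233 values above 0 match, within 0.0051, whole UMI counts corrected for collisions among 4096 molecular identifiers. Rounding them before the tests altered 13.5% of these values, where the design had assumed whole counts. Spike-in rows stayed out of all sums and totals.

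Wells of the same name prefix were summed per library. Sums of at least 10 wells (libraries 1 to 6) entered the condensate against Fb fit, and sums of at least 2 wells (libraries 1 to 8) the fit of the 4 populations. All genes left by filterByExpr were tested with edgeR 4.0.16 (TMM, glmQLFit, glmQLFTest, R 4.3.3) with the library as a block, Benjamini-Hochberg adjustment over all genes tested and a threshold of 0.05. The block is justified because both populations of a library share a plate; deviations of same-library sums correlated at 0.0817 to 0.224, and 6 of 6 libraries correlated best with themselves. The condensate against Fb and DC0 against Fb contrasts were run on simulated counts without a library effect. Of 100 genes changed 2-fold, 51 and 69 were recovered, and of 100 changed 4-fold, 87 and 85. Unchanged genes made up 4.83% and 2.53% of the genes called. Contrasts between condensate populations were not simulated. Ratios of chains used an exact two-sided sign-flip permutation test and need 10 UMIs of each chain in every sum. CPM are UMIs per 1000000 of a sum. Counting ratios carry exact 95% intervals that cover counting error only. No doublet caller was run on cells sorted into separate wells.

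The members and the lists of maturation and marker genes were chosen with earlier results of these data known. Per-library values are given for chains called in any contrast. Maturation genes are named when past adjusted p of 0.05 and a log2 fold change of 1 in size, at most 8 in each direction. Others are named where a call changed under an alternative. All 47 were in the table, 5 under older symbols. Alternatives were RLE scaling, DESeq2 1.42.0, no filter, no block, thinning to 3000 UMIs, other well minimums, single flow cells and leaving out each library. Figures were drawn with matplotlib 3.10.9. Gene positions come from GENCODE M21 on mm10. The description of library 7 names another plate (KM12) than its title and columns (KM07); the title was used.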

Additional observations from a re-analysis of the deposited data

Results flagged for a closer look

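Across 66 groups of libraries examined, 14 held a library that stood apart from the rest by Dixon's criterion, which chance alone gives in about 5% of independent groups. The groups here share chains and libraries, so they are not independent and the count is no test of an excess. Most came from library 4. Its Col1a1 level was 4358 CPM in Fb wells, where the other libraries lay between 8661 and 11747 CPM, and 742 CPM in condensate wells (1665 to 2217 CPM in the others). Its Col3a1 level in Fb wells was 19924 CPM (14623 to 16245 CPM in the others). The ratios that contain Col1a1 stood apart in the same library: Col1a2 over Col1a1 at 3.19 in Fb and 4.19 in condensate wells, Col3a1 over Col1a1 at 4.57 and 12.9, Col5a1 over Col1a1 at 0.378 and 1.19, and Col14a1 over Col1a1 at 0.0486 in Fb wells.

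The condensate wells of library 1 stood apart for Col6a3, at 1585 CPM against 2534 to 2886 CPM, and for Col25a1, at 111 CPM against 15.05 to 37.3 CPM, the latter on 10 UMIs in 12 wells. Col9a1 stood apart in the Fb wells of library 7, at 16.0 CPM against 9.69 to 12.1 CPM, and in the condensate wells of library 3, at 3.76 CPM, which is 1 UMI where the others had none.

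ERCC wells, which enter no comparison, held 2112 UMIs of collagen chains, from 24 of the 38 chains.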

How the results depend on the processing

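Of the 19 chains called in condensate against Fb wells, 19 kept direction and call under RLE scaling, DESeq2 and a minimum of 5 wells, and 18 with no filter and with no replicate block, where Col6a2 was lost. Of all genes, 2276 were called in that comparison, 624 with every well thinned to 3000 UMIs and 1035 in the libraries outside the shared flow cell, where 4 collagen chains were higher. DC0 against Fb called 549 genes, 76 when thinned, 207 outside the shared flow cell and 1577 with no filter. In that contrast 13 chains were lower with no filter and 5 when thinned. The main fit tested 2069 genes and the fit with no filter every gene with a UMI, so these counts are not shares of one total.

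DC1 against DC0 (24 genes called) gave 50 with no filter, 5 when thinned, 2 with at least 5 wells, 2 in the shared flow cell and 3 outside it; 1 chain was higher and 1 lower with no filter, and 1 was higher when thinned. DC2 against DC1 (51) gave 114 with no filter, 13 when thinned, 6 with at least 5 wells, 16 in the shared flow cell and 0 outside it; 1 chain was higher by DESeq2 and with no filter. DC2 against DC0 (364) gave 744 with no filter, 68 when thinned, 150 in the shared flow cell and 48 outside it. Its collagen chains were 4 higher and 0 lower when thinned, 4 higher with at least 5 wells, 1 and 1 in the shared flow cell, and 1 and 0 outside it. These counts can include chains other than the 9 called with all libraries, and in the shared flow cell none of those 9 was called. Thinning, well minimums and single flow cells leave fewer genes, wells or libraries by construction, and no filter leaves more genes. The number of genes tested under each setting is not given here, so the counts are not shares. Of those 9 chains, 4 could be tested when thinned and 6 outside the shared flow cell. Otherwise the cause was not tested.

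With no replicate block, DC2 against DC1 gave 1 chain higher (Col26a1), DC2 against DC0 gave 1 chain lower (Col3a1 lost), and the exact test of ratios gave Col3a1 over Col1a1 1.22 (adjusted p = 0.0390) and Col5a2 over Col5a1 0.71 (0.0260), now past 0.05. With at least 5 wells (7 libraries) the 3 ratios passed at adjusted p = 0.03125: Col3a1 over Col1a1 1.27, Col5a1 over Col1a1 1.05 and Col5a2 over Col5a1 0.75. Col8a2 in condensate against Fb and Col15a1 in DC0 against Fb were called with no replicate block (adjusted p = 0.0370 and 0.0173), and Col6a2 in condensate against Fb was lost (0.0621). In the maturation list Mmp2, P4ha1 and Plod1 were gained in DC0 against Fb, Plod1 was gained and Loxl2 lost in DC2 against DC0, and no other call of a listed gene changed.

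Leaving out each library in turn gave 0 to 1 chain higher and 0 to 1 lower in DC1 against DC0, 18 to 54 genes and 0 to 1 chain higher in DC2 against DC1, and 200 to 413 genes, 1 to 8 chains higher and 0 to 3 lower in DC2 against DC0. Chains that changed sign had small values: Col9a2 at 0.36 outside the shared flow cell and from -0.71 to 0.20 over the fits that leave out 1 library; Col26a1 at -0.10 with no filter, -0.0096 when thinned, -0.020 in the shared flow cell and from -0.033 to 0.13 leaving out 1 library (condensate against Fb), and 0.065 with at least 5 wells (DC0 against Fb). In DC0 against Fb, Col6a1 was -0.24 and Col6a3 -0.26 with no filter, -0.079 and -0.076 outside the shared flow cell, and Col6a2 was -0.20 with no filter. Depth limits the stages: 2855 UMIs in the DC2 sum of library 1 mean that a count of 0 there allows a level of up to 1051 CPM.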

Other observations

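Library 9 held DC1 wells only and entered no fit. Its wells gave Col1a1 at 1651 CPM, Col23a1 at 608 CPM, Col7a1 at 543 CPM, Col15a1 at 202 CPM, Col14a1 at 115 CPM, Col19a1 at 85.6 CPM and Col11a1 at 29.9 CPM. Each of these lay within the range of the DC1 sums of libraries 1 to 7. Col8a1 lay at 54.98 CPM there, and 35 of the 82 Col8a1 UMIs of all DC1 wells came from 1 well.

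Collagens took 2.29% of UMIs in the median DC0 well and 2.33% in the median DC2 well of library 8, and 2.15% in the median DC1 well of library 9, among wells with at least 3000 UMIs. The medians were 2.53% in DC0, 2.23% in DC1 and 2.49% in DC2 wells of libraries 1 to 7.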
